A study of Mus musculus with 8 samples.

Results

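The comparison asked what the loss of Cd69 changed in stem-like tumour-specific CD8+ T cells of the mouse. Its members were the 4 RNA-seq libraries whose titles name the stem-like subset, 2 from Cd69-/- and 2 from wild-type animals, out of 8 libraries in all. The other 4 libraries held the subset that the labels call term diff, written term-diff here, with 2 libraries of each genotype. Every library came from CD8+ T cells of BALB/c mice, stained by the AH1 tetramer and sorted live on a FACSAria III. The genotypes were called wild type and Cd69-/- in the labels, with no other allele or treatment named for any group. Age, sex, number of animals, sort gates, the tumour and the deleted part of Cd69 were not given in the sources used here. No label says whether 2 libraries of a group came from separate mice, so the p-values below measure the spread between these libraries, which may be technical.

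CD69 is a C-type lectin-like membrane protein that appears on T cells soon after antigen receptor signalling. It binds the sphingosine-1-phosphate receptor S1PR1 and takes it off the cell surface, which holds the cell in its tissue. Stem-like CD8+ T cells of tumours and chronic infections keep the transcription factor TCF1 (gene Tcf7), renew themselves and give rise to terminally differentiated cells, which carry TIM-3 (gene Havcr2) and granzymes. The AH1 tetramer marks T cells that recognise an envelope peptide of an endogenous murine leukaemia virus carried by BALB/c tumour lines.

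Expression was given as FPKM, fragments scaled by transcript length and by sequencing depth. Between 9144 and 9225 gene rows reached 1 FPKM in the 4 stem-like libraries. The confidence limits deposited beside each FPKM implied 2089721 and 2257186 fragments in the wild-type and 2403106 and 2445252 in the Cd69-/- stem-like libraries. Rows of small RNA held 62.4% to 83.9% of the summed FPKM of these 4 libraries, the lowest share in wild-type replicate 2. Between replicates the median gene differed by 0.18 in wild type and 0.15 in Cd69-/- on the log2(FPKM + 1) scale. The subset label could be checked on its defining genes. Tcf7 was at 55.2 and 64.2 FPKM in wild-type and 60.5 and 40.6 in Cd69-/- stem-like libraries, against 0.228 to 0.755 in the term-diff ones. Havcr2 ran the other way, from 0.847 to 2.29 FPKM in stem-like and from 23.4 to 39.8 in term-diff. The labelled cell type was checked on its markers, and Cd8a stood at 126 to 155 FPKM and Cd3e at 184 to 234 in the stem-like libraries.

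Cd69 itself (listed at chr6:129267324-129275369, build mm10) was at 22.5 and 23.4 FPKM in wild type and at 3.69 and 2.42 in the Cd69-/- stem-like libraries. The genotypes did not overlap, and each label matched its libraries. The difference, Cd69-/- minus wild type, was -2.58 ± 0.17 on the log2(FPKM + 1) scale (± SE here and below; limma, adjusted p = 0.000959 over 9782 genes), and the mean level was 7.52 times as high in wild type. Cd69-/- libraries still held 44 and 29 implied fragments of the gene, against 268 and 241 in wild type. All 76-base windows of Cd69 transcripts were unique to the gene in the GENCODE M21 annotation. The tables give 1 value per gene, so the exons behind the remaining fragments are unknown. In term-diff cells Cd69 was at 10.4 and 12.9 FPKM in wild type and 2.21 and 2.43 in Cd69-/- (-1.93 ± 0.17, adjusted p = 0.00956).

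Apart from Cd69 few genes separated the genotypes in stem-like cells. Of 9782 genes kept, 15 passed the threshold of 0.05 for the adjusted p (0.153% of the genes). Of these, 4 were higher (0.0409%) and 11, Cd69 among them, lower (0.112%) in Cd69-/-. With quantile normalization the split was 2 and 12. The median gene differed by 0.13 in either direction with a median SE of 0.16, and the smallest difference that passed was 0.94. At an unadjusted p under 0.05 there were 464 higher (4.74%) and 246 lower (2.51%). In this fit 62.5% of all genes lay above 0 (median 0.06), against 50.2% under median-of-ratios scaling (median 0.00). A difference of at least 1 was reached by 101 genes, of which 90 did not pass. Exact permutation of 2 against 2 libraries cannot go below p = 0.333, so single genes rest on the spread that limma pools over genes and over all 4 groups.

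**Figure D1:**
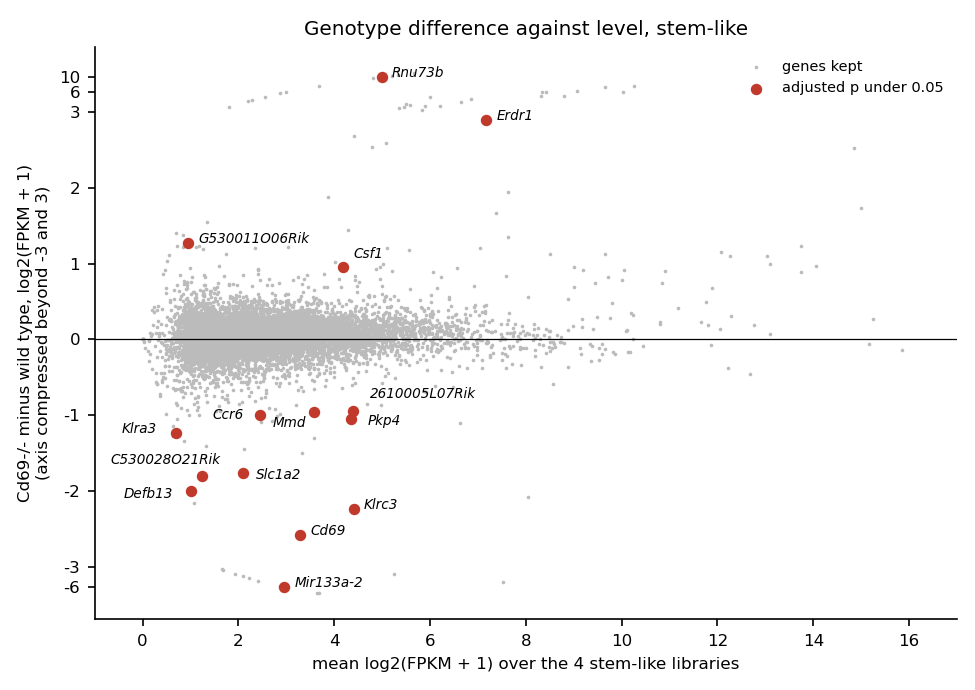
Difference between genotypes (Cd69-/- minus wild type, log2(FPKM + 1), axis compressed beyond -3 and 3) against the mean log2(FPKM + 1) of the 4 stem-like libraries for the 9782 genes kept. The 15 genes past the threshold are in red, and outlying grey points that did not pass are seen at both low and high mean levels.

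How far the calls rest on single libraries differed between genes. Cd69 passed in each of the 22 other fits made for it. With no filter on low values the calls were Cd69, Mir133a-2, Rnu73b and Defb13, and adjusted p was 0.106 for Erdr1 and 0.119 for Klrc3 and Slc1a2. A pseudocount of 0.1 ended the call of Slc1a2 (adjusted p = 0.256) and of Ccr6 (0.581), and so did a filter of 5 FPKM (0.263 and 0.515). Without Cd69-/- stem-like replicate 1 the calls were Cd69, Mir133a-2, Rnu73b and Defb13, and Erdr1 (adjusted p = 0.0627), Klrc3 (0.134) and Slc1a2 (0.134) no longer passed. Leaving out either stem-like library of wild type also ended the call of Slc1a2, with adjusted p = 0.0758 for replicate 1 and 0.0528 for replicate 2. The other 8 genes, with adjusted p between 0.032 and 0.0417, missed it without Cd69-/- stem-like replicate 1 or 2 and without Cd69-/- term-diff replicate 1 or 2. For Klra3, C530028O21Rik, 2610005L07Rik, G530011O06Rik, Pkp4, Csf1, Ccr6 and Mmd the adjusted p then lay between 0.0602 and 0.379.

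**Figure D2:**
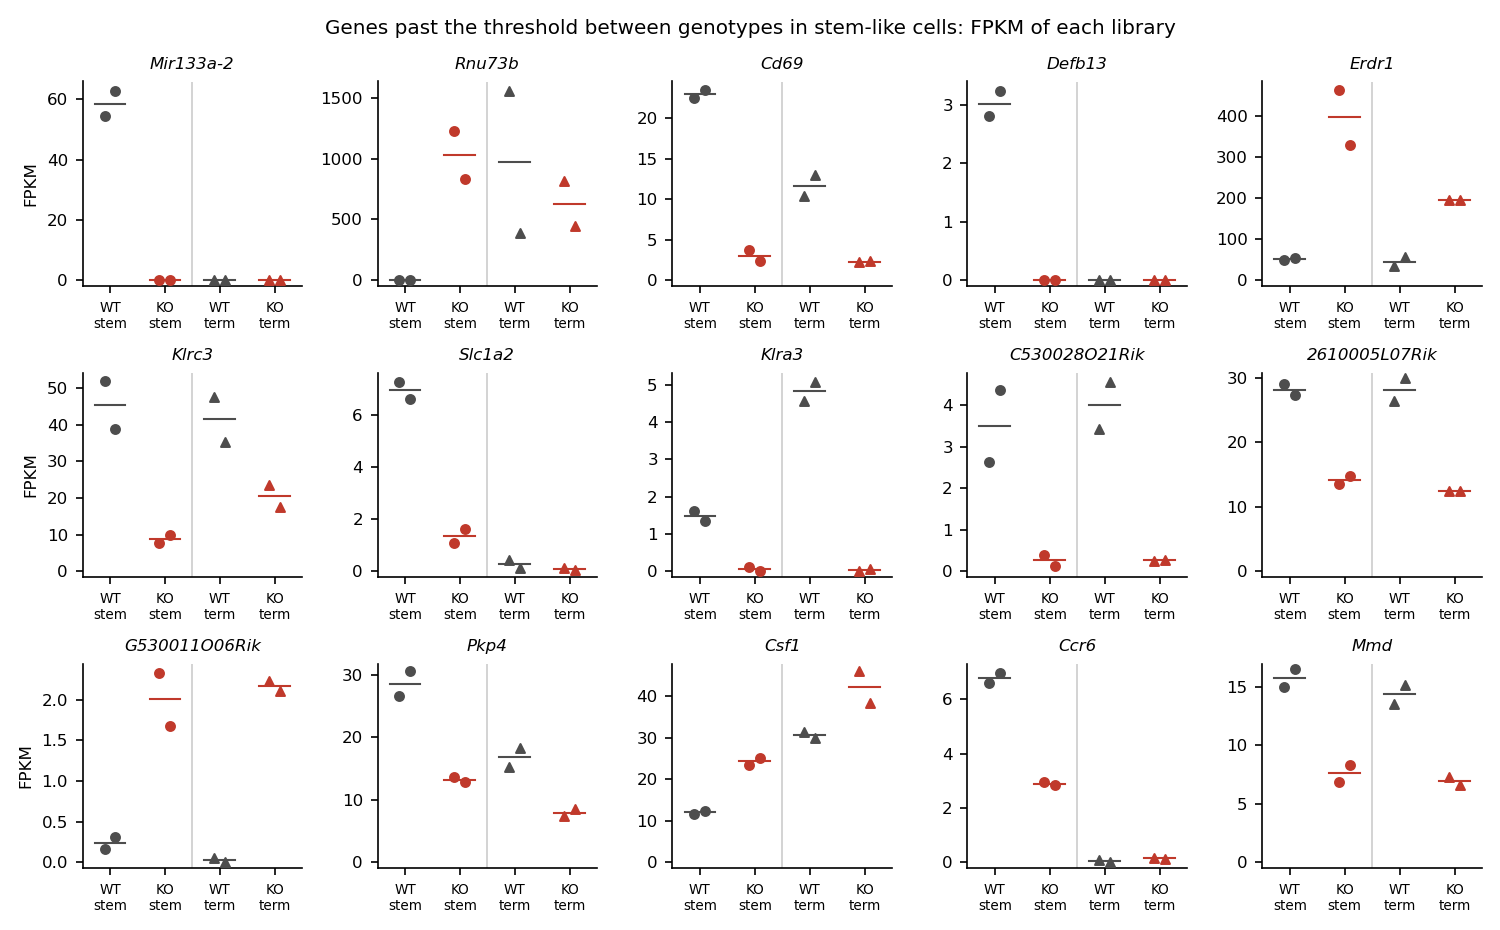
FPKM of the 15 genes past the threshold in each of the 8 libraries (circles stem-like, triangles term-diff, grey wild type, red Cd69-/-), with a line at the mean of each pair. Among the stem-like points no pair of genotypes overlaps, and Mir133a-2, Rnu73b and Defb13 are listed at 0 in one genotype. The genes were picked by the test on these values, so their separation, here and in the text, adds no support.

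Among receptors, the largest fall after Cd69 was that of Klrc3, which encodes NKG2E, a lectin-like receptor chain of NK and activated CD8+ T cells that pairs with CD94 (listed at chr6:129639084-129643288). Klrc3 was at 52.1 and 38.9 FPKM in wild type and 7.80 and 9.83 in the Cd69-/- stem-like libraries. Both wild-type libraries stood far above both Cd69-/- ones, and the difference was -2.24 ± 0.22 (adjusted p = 0.00955). Without Cd69-/- stem-like replicate 1 it did not pass (adjusted p = 0.134). In term-diff cells the levels were 47.7 and 35.2 FPKM in wild type and 23.6 and 17.6 in Cd69-/- (-0.97, adjusted p = 0.163). Of the 76-base windows of Klrc3 transcripts, 76.9% occurred in no other gene and 22.4% also in Klrc2, so part of its fragments may have been split with that paralog.

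Klrc2 (NKG2C, an activating receptor) and Klrc1 (NKG2A, an inhibitory one) lie beside Klrc3 and stood on the other side. Klrc1 was at 73.2 and 62.1 FPKM in wild type and 146 and 117 in Cd69-/- (0.94 ± 0.20, adjusted p = 0.281). For Klrc2 the levels were 63.9 and 46.8 against 87.9 and 88.8 FPKM (0.68, adjusted p = 0.345). Their partner chain Klrd1 (CD94) was at 34.6 and 26.6 against 40.4 and 51.7 FPKM (0.57, adjusted p = 0.514). In these 3 genes every Cd69-/- library was above every wild-type one, as in 26.3% of all genes kept, but no difference passed. Windows were shared here too, with 75.5% of those of Klrc1 and 88.9% of those of Klrc2 unique, and all of those of Klrd1.

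Klra3, which encodes the inhibitory receptor Ly49C, fell at a low level, from 1.62 and 1.35 FPKM to 0.107 and 0 (-1.24, adjusted p = 0.032). That level corresponded to 15 and 11 implied fragments in wild type and 1 and 0 in Cd69-/-. The adjusted p was 0.0938 to 0.222 when any 1 stem-like library was left out. In the term-diff libraries the same gene was at 4.57 and 5.07 FPKM in wild type and 0 and 0.0586 in Cd69-/- (-2.50, adjusted p = 0.00116). Klra1 (Ly49A) was the reverse in stem-like cells, at 0 in both wild-type libraries and at 0.834 and 1.57 FPKM in Cd69-/- (adjusted p = 0.383). Over the whole list of NK lectin-like receptors, 13 of 30 with a row were kept, 0 rose and 2 fell, against 0.0409% and 0.112% of all genes, and 7 of the 13 lay above 0.

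The neighbourhood of Cd69 on chromosome 6 was therefore looked at as a whole. Klrc3 and Klra3, which led to this look, are counted in it, so its share of calls is not independent of them. Within 10 Mb of the start of Cd69 lay 294 other gene rows, 106 of them kept. Of these 106, 3 passed (2.83%), namely Klrc3 at 0.372 Mb, Klra3 at 1.06 Mb and the gene model C530028O21Rik at -4.27 Mb, against 11 of the 9675 genes kept elsewhere (0.114%). C530028O21Rik was at 2.63 and 4.36 FPKM in wild type and 0.402 and 0.128 in Cd69-/- (-1.81, adjusted p = 0.032), and at 3.43 and 4.56 against 0.250 and 0.276 in term-diff (-1.97, adjusted p = 0.0215). Without a stem-like library its adjusted p ran from 0.0174 to 0.222, the lowest without wild-type replicate 1. At an unadjusted p under 0.05 the region held 20 of 106 genes (18.9%) and the rest of the genome 689 (7.12%). The median absolute difference was 0.21 in the region and 0.13 elsewhere, while the signed medians were 0.09 and 0.06. Genes to both sides were found among the 20, such as Emp1 at 6.10 Mb (1.20, adjusted p = 0.162), Ncapd2 at -4.10 Mb (0.69, adjusted p = 0.262) and Ccnd2 at -2.14 Mb (0.46, adjusted p = 0.358). Any sequence linked to the targeted allele is shared by the Cd69-/- libraries, so a difference in linked sequence and the loss of Cd69 cannot be told apart in these groups.

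**Figure D3:**
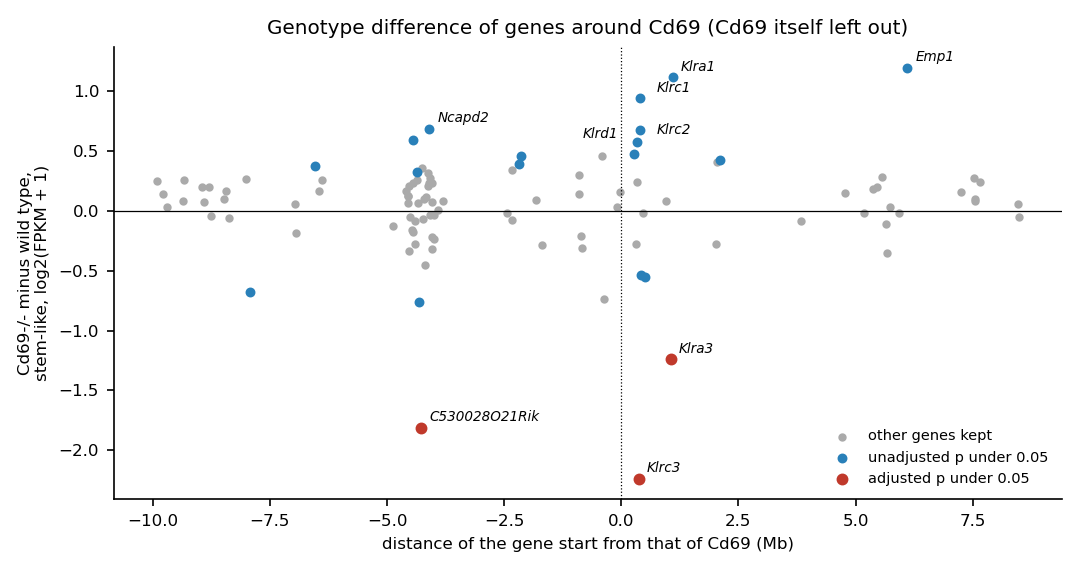
Difference between genotypes in stem-like cells (log2(FPKM + 1)) for the 106 genes kept within 10 Mb of Cd69, by the distance of their start from that of Cd69 in Mb. The 3 genes past the adjusted threshold (red) are all below 0, and the 17 others at an unadjusted p under 0.05 (blue) lie on both sides of 0.

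Of the 4 genes that rose, 2 are listed at the end of a sex chromosome. Erdr1, the erythroid differentiation regulator of the pseudoautosomal region (listed at chrY:90785441-90816465), was at 49.3 and 53.8 FPKM in wild type and 463 and 330.5 in the Cd69-/- stem-like libraries. Its mean was 7.70 times as high in Cd69-/-, and the difference was 2.90 ± 0.26 (adjusted p = 0.00555). Erdr1 and C530028O21Rik had no entry under these symbols in GENCODE M21, so whether their windows are unique was not checked. Erdr1 did not pass without Cd69-/- stem-like replicate 1 (adjusted p = 0.0627), under quantile normalization (0.0634) or with no filter (0.106). The term-diff levels were 33.9 and 56.9 against 196 and 196 FPKM (2.13, adjusted p = 0.0272). G530011O06Rik, a gene model at chrX:169975042-169978917 within the span of Mid1, was at 0.160 and 0.306 FPKM in wild type and 2.33 and 1.68 in Cd69-/- (1.28, adjusted p = 0.0394). It rested on 3 and 5 against 43 and 31 implied fragments, with adjusted p of 0.115 to 0.346 when 1 stem-like library was left out and 0.0634 under quantile normalization. Mid1, a ubiquitin ligase gene that crosses the pseudoautosomal boundary in mice, was at 1.598 and 1.06 against 3.75 and 2.16 FPKM (0.74, adjusted p = 0.483). Whether the authors counted by strand is not given, so reads of Mid1 and G530011O06Rik cannot be told apart. Of the windows of G530011O06Rik, 89.2% were unique and 10.15% also occurred in Gm21748. Further inward on the X chromosome Hccs had a difference of 0.04 (adjusted p = 0.969) and Msl3 of 0.29 (adjusted p = 0.781), so that 2 of the 5 kept genes of this region passed. These genes were chosen after their values were seen.

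Sex-linked genes were looked at beside them. Xist, which silences one X chromosome in female cells, measured 56.7 and 58.9 FPKM in wild type and 54.9 and 56.6 in Cd69-/- (-0.05, 95% interval -0.39 to 0.29, adjusted p = 0.961). The Y-linked genes Ddx3y, Uty, Kdm5d and Eif2s3y were at most 0.0131 FPKM in the 4 stem-like libraries.

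Outside these regions, 2 genes coding for surface proteins fell in Cd69-/- stem-like cells. Slc1a2, the glutamate transporter GLT-1, was at 7.26 and 6.61 FPKM in wild type and 1.10 and 1.61 in Cd69-/- (-1.76 ± 0.18, adjusted p = 0.0105). The mean was 5.12 times as high in wild type, on 114 and 92 against 18 and 25 implied fragments. The call ended without Cd69-/- replicate 1 (adjusted p = 0.134) and without wild-type replicate 1 (0.0758) or 2 (0.0528) of the stem-like subset. In term-diff libraries Slc1a2 was between 0.0630 and 0.421 FPKM in all 4. It was the only member of 9 amino acid transporters kept that passed, while 0.112% of all genes fell. The other members ranged from -0.13 to 0.30.

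Ccr6, the receptor of the chemokine CCL20, was at 6.59 and 6.98 FPKM in wild type and 2.95 and 2.83 in Cd69-/- stem-like libraries (-1.0 ± 0.13, adjusted p = 0.0417). Leaving out any 1 stem-like library gave adjusted p of 0.186 to 0.346. In term-diff cells Ccr6 was at 0.160 FPKM or lower in every library. Of 11 chemokine receptors kept, 0 rose and 1 fell, against 0.0409% and 0.112% of all genes. The highest difference was that of Ccr2 (0.76, adjusted p = 0.45).

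Csf1, the growth factor of macrophages, was the named ligand gene that rose, from 11.7 and 12.4 FPKM in wild type to 23.5 and 25.2 in Cd69-/- (0.96 ± 0.13, adjusted p = 0.0417). All 4 values were closer within than between genotypes, and the mean was 2.03 times as high in Cd69-/-. The adjusted p ran from 0.16 to 0.346 without 1 stem-like library. Term-diff levels were 31.3 and 29.9 against 46.1 and 38.4 FPKM (0.45, adjusted p = 0.206). The myeloid receptor of this factor, Csf1r, was at 0.0964 to 0.189 FPKM in the 4 stem-like libraries.

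The sequences before the starts of Slc1a2, Ccr6 and Csf1 are shown because, among the called genes searched, these 3 held a TCF motif, the letters bound by the TCF1 protein of stem-like cells. The RefSeq promoter table (GRCm38.p6) had an entry for 7 of the 9 named genes looked up, among them Klrc3, Klra3, Pkp4 and Mmd. The 250 bases before each start were searched on both strands for CTTTGA (TCF) and TGANTCA (AP-1), which do not overlap in these sequences. Capitals mark the TCF matches, and TCAAAG is the same motif on the other strand. The lines give Slc1a2 at chr2:102706188-102706437 (+ strand, a start within the span listed by the authors), Ccr6 at its first (chr17:8235793-8236042, +) and its other start (chr17:8242276-8242525, +) and Csf1 at chr3:107760470-107760719 (- strand, printed 5′ to 3′).
Slc1a2: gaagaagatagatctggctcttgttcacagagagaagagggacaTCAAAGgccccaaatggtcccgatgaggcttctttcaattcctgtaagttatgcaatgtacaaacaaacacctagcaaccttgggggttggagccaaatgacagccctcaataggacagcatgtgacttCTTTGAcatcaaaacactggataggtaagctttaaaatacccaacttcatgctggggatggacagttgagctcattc
Ccr6 first start: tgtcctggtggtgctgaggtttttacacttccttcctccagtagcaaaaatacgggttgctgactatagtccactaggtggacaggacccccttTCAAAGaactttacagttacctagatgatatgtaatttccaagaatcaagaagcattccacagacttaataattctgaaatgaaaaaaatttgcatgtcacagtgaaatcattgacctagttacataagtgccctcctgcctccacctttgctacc
Ccr6 other start: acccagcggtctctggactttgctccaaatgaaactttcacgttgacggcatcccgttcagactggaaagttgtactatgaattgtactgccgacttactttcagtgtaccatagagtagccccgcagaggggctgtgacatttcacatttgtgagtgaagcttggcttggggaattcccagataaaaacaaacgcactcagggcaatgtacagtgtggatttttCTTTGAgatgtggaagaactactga
Csf1: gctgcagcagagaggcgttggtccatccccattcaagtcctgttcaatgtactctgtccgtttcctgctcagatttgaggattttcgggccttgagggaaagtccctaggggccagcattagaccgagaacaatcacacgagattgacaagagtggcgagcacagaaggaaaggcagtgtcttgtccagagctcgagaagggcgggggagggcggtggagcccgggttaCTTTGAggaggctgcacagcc

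Slc1a2 held 2 TCF matches and each start of Ccr6 and Csf1 held 1, while those of Klrc3, Klra3, Pkp4 and Mmd held 0. No AP-1 match was found in any of these windows. Of 32851 promoter windows of the same length, 13.8% held the TCF letters and 6.75% the AP-1 letters. The matches occur in a gene that rose as well as in genes that fell, and they describe letters, not binding. Tcf7 itself did not pass between genotypes (-0.26, 95% interval -0.70 to 0.18, adjusted p = 0.825).

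Pkp4 and Mmd fell in both subsets. Pkp4, an armadillo-repeat protein of cell junctions, was at 26.6 and 30.7 FPKM in wild type and 13.7 and 12.8 in Cd69-/- (-1.05 ± 0.14, adjusted p = 0.0417), with -0.99 in term-diff (adjusted p = 0.042). Mmd, a membrane protein of the PAQR family first found in maturing macrophages, was at 15.02 and 16.5 against 6.90 and 8.31 FPKM (-0.97 ± 0.13, adjusted p = 0.0417), with -0.95 in term-diff (adjusted p = 0.042). Without 1 stem-like library adjusted p was 0.103 to 0.346 for Pkp4 and 0.155 to 0.379 for Mmd. The gene model 2610005L07Rik was at 29.0 and 27.3 against 13.6 and 14.8 FPKM (-0.94, adjusted p = 0.0351, and 0.129 to 0.346 without 1 stem-like library). Its windows were 74.0% unique, with 19.6% also in 6820431F20Rik, so its reads may be split with that copy. The copy was lower in Cd69-/- too, at 39.0 and 44.7 against 21.4 and 23.7 FPKM in stem-like (-0.86, adjusted p = 0.109). In term-diff its difference was -1.18 (adjusted p = 0.0272). How reads were split between the copies was not tested. Of the windows of Mmd, 82.3% were unique and 11.9% also occurred in Gm45883.

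The remaining 3 calls rested on very few fragments. Mir133a-2, a precursor gene of a muscle microRNA, was at 54.5 and 62.8 FPKM in wild type, which is 1 implied fragment in each library, and at 0 in the other 6 libraries. Rnu73b, a small RNA gene, was at 0 in wild type and at 1225 and 829 FPKM in Cd69-/-, on 3 and 2 implied fragments. Defb13, a beta-defensin gene, was at 2.81 and 3.24 FPKM in wild type on 1 implied fragment each and at 0 in Cd69-/-. With implied fragments in voom in place of FPKM none of these 3 passed (adjusted p = 0.756, 0.607 and 0.756). When rows of small RNA were left out of the fit, an alternative chosen after seeing the data, 30 genes passed, among them the 13 that are not small RNA.

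Beyond the threshold, the genes next in order of p hold several of known function. They were taken only from genes whose stem-like libraries did not overlap between genotypes, so their separation is not a result. Of all genes kept, 26.3% had no overlap with Cd69-/- higher and 11.5% with Cd69-/- lower. On the lower side Spry2, a feedback inhibitor of growth factor and antigen receptor signalling, was at 24.9 and 29.3 FPKM in wild type and 13.1 and 13.5 in Cd69-/- (-0.97, adjusted p = 0.0633). Irf8, an interferon regulatory factor, was at 32.6 and 34.4 against 17.3 and 19.0 FPKM (-0.85, adjusted p = 0.067). Ikzf2, the zinc finger factor Helios, was at 9.12 and 9.40 against 4.02 and 4.39 FPKM (-0.98, adjusted p = 0.109). None of these 3 genes passed. Mrc2, an endocytic collagen receptor, was at 14.9 and 16.8 against 5.02 and 4.85 FPKM (-1.50, adjusted p = 0.113), and Cd83, a glycoprotein of activated cells, at 12.2 and 10.8 against 5.39 and 6.38 (-0.86, adjusted p = 0.142).

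On the higher side the next genes included structural, chromatin and effector genes. Vim, the intermediate filament vimentin, was at 43.9 and 52.1 FPKM in wild type and 91.3 and 88.5 in Cd69-/- (0.90, adjusted p = 0.116). Satb1, a chromatin organiser of T cells, was at 13.6 and 17.4 against 29.5 and 25.4 FPKM (0.79, adjusted p = 0.146). Gzmb, the serine protease granzyme B of cytotoxic granules, was at 23.6 and 28.4 against 49.3 and 49.5 FPKM (0.91 ± 0.17, adjusted p = 0.158). None of these 3 passed. Among the alternatives, Mrc2 passed in 6 of 22, Spry2 and Irf8 in 4, and Ikzf2, Cd83, Vim and Gzmb in 3. Leaving out the rows of small RNA gave adjusted p of 0.0121 for Mrc2 and Spry2, 0.0155 for Irf8, 0.0203 for Vim, 0.0247 for Ikzf2, 0.0281 for Gzmb, 0.0419 for Satb1 and 0.0515 for Cd83, which did not pass.

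The effector programme was read from lists of genes by role. Over all genes kept 0.0409% rose and 0.112% fell. In lists of these sizes, here and below, 0 calls is near those shares and does not show that a list was unchanged. No granzyme or granule gene passed, with 0 of 24 higher and 0 lower. Of these, 20 lay above 0 (62.5% of all genes did) with a median of 0.15 against 0.06 over all genes. In 11 the Cd69-/- libraries were both higher and in 2 both lower, against 26.3% and 11.5% of all genes. Prf1, the pore-forming protein perforin, was at 17.9 and 23.4 against 27.7 and 35.3 FPKM (0.59, adjusted p = 0.45). Gzma was at 0.687 and 0.198 against 3.97 and 1.23 FPKM (1.23, adjusted p = 0.595), with Cd69-/- replicate 1 well above replicate 2. The number above 0 was 17 of 24 under median-of-ratios scaling and quantile normalization, which put 50.2% and 49.3% of all genes above 0.

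Among chemokine ligands 0 of 6 rose and 0 fell, with 5 above 0 and a median of 0.70. Ccl5 was at 7.08 and 6.12 FPKM in wild type and 39.1 and 18.4 in Cd69-/- (1.88 ± 0.36, adjusted p = 0.193), so that the Cd69-/- libraries differed from each other by more than the wild-type level. Ccl4 (15.2 and 18.1 against 35.7 and 23.0 FPKM) and Ccl3 (13.8 and 12.1 against 27.2 and 17.1 FPKM) had the same high library, replicate 1 of Cd69-/-. Ccl5 passed in 2 of 22 alternatives, with the replicate block (adjusted p = 0.0391) and with rows of small RNA left out (0.0235). Xcl1, the ligand of cross-presenting dendritic cells, was at 115 and 106 against 66.3 and 76.0 FPKM (-0.63, adjusted p = 0.564). Of 19 cytokine and TNF ligand genes Csf1 rose and 0 fell. Ifng was at 70.8 and 66.5 against 82.1 and 72.7 FPKM (0.17, 95% interval -0.19 to 0.53, adjusted p = 0.851).

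In the stem and progenitor list 0 of 24 rose and 0 fell, 14 lay above 0 (62.5% of all genes did) and the median was 0.07. The members went both ways, from -0.85 to 0.80. At an unadjusted p under 0.05, 7 were higher and 3 lower, against 4.74% and 2.51% of all genes. Myb, a factor needed for self-renewal, was at 15.6 and 18.6 against 31.2 and 23.1 FPKM (0.63, adjusted p = 0.408), and Il7r, the receptor chain of interleukin-7, at 12.9 and 18.8 against 23.7 and 21.9 (0.52, adjusted p = 0.6). Kit, the stem cell factor receptor, was at 3.75 and 5.11 against 2.01 and 1.95 FPKM (-0.85, adjusted p = 0.18), and Id3, an inhibitor of E proteins, at 1.24 and 1.42 against 0.620 and 0.158 (-0.77, adjusted p = 0.408). Slamf6, a surface marker of progenitor cells, was at 14.9 and 21.3 against 26.9 and 21.7 FPKM (0.41, 95% interval -0.02 to 0.85, adjusted p = 0.724).

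Inhibitory receptors had 0 of 18 higher and 0 lower, with 10 above 0 and a median of 0.04. Pdcd1 (PD-1) was at 148 and 169 FPKM in wild type and 146 and 149 in Cd69-/- (-0.10, 95% interval -0.48 to 0.27, adjusted p = 0.921). Havcr2 (TIM-3) was at 0.987 and 0.847 against 2.03 and 2.29 FPKM (0.72, adjusted p = 0.215), and Lag3 at 47.5 and 55.3 against 63.8 and 59.2 (0.26, adjusted p = 0.788). Costimulatory receptors had 0 of 14 in each direction and a median of -0.01. Of 21 effector and exhaustion factors 0 passed, with differences from -0.98 to 0.49. Under median-of-ratios scaling 1 of them fell, against 14 of 9782 genes. With implied fragments in voom 2 fell, against 32 of 9782. Tox, a factor of exhausted T cells, was at 61.3 and 79.1 against 51.2 and 53.6 FPKM (-0.40, adjusted p = 0.65), while Prdm1 (Blimp-1) was at 1.22 and 1.43 against 2.45 and 2.10 (0.49, adjusted p = 0.553). Genes of the early antigen receptor response, Spry2 and Cd83 among them, had 0 of 26 past the threshold and a median of -0.04. With voom 2 of the 26 fell. AP-1 factors had 0 of 12 and a median of 0.06, with Atf3 at 0.59 and Batf at -0.32.

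S1pr1, the receptor that CD69 binds, was low in these cells. S1pr1 was at 0.614 and 0.897 FPKM in wild type and 1.64 and 0.960 in Cd69-/- stem-like libraries, and only Cd69-/- replicate 1 of the 8 reached 1 FPKM, so it was not tested. Of 16 kept genes of sphingosine-1-phosphate signalling and egress 0 rose and 0 fell, with 11 above 0 and a median of 0.11. Differences in this list ran from -0.51 to 0.80. At an unadjusted p under 0.05, 2 members were higher and 1 lower, against 4.74% and 2.51% of all genes. S1pr4 was at 4.39 and 3.41 against 6.37 and 4.69 FPKM (0.41, adjusted p = 0.778). Klf2, the factor that drives S1pr1, was at 5.597 and 7.28 against 11.8 and 6.07 FPKM (0.37, 95% interval -0.22 to 0.95, adjusted p = 0.815), with Cd69-/- replicate 2 between the wild-type libraries. Itga4, an integrin chain of homing, was at 23.8 and 24.2 against 16.9 and 16.2 FPKM (-0.51, adjusted p = 0.529), and its partner Itgb7 at 4.92 and 5.89 against 10.6 and 6.93 (0.59, adjusted p = 0.571). Integrin and residency genes had 0 of 13 higher and 0 lower, with a median of 0.05.

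Some lists lay mostly on one side with no member past the threshold. Of 18 glycolysis genes 17 were above 0, with a median of 0.23. In 13 of the 18 both Cd69-/- libraries were the higher ones, against 26.3% of all genes. Slc2a1 (GLUT1), a glucose transporter, was at 7.62 and 7.60 against 10.4 and 10.9 FPKM (0.43, adjusted p = 0.45), and the enzyme Aldoa at 48.9 and 51.9 against 63.2 and 69.3 (0.39, adjusted p = 0.627). Of 33 interferon response genes 31 were above 0, with a median of 0.18. Irf9, a subunit of the interferon-activated complex, was at 8.88 and 10.9 against 14.1 and 13.7 FPKM (0.45, adjusted p = 0.483), and Ifi44 at 0.952 and 0.690 against 2.45 and 2.09 (0.85, adjusted p = 0.347). Of 36 proliferation genes 32 were above 0, with a median of 0.17. Ccnb2, a mitotic cyclin, was at 4.59 and 5.69 against 7.21 and 8.12 FPKM (0.50, adjusted p = 0.598). Summed FPKM of the proliferation list was 327 and 328 in wild type and 328 and 415 in Cd69-/-, so that replicate 2 alone was higher.

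Under median-of-ratios scaling, which put 50.2% of all genes above 0, these counts were 16 of 18 for glycolysis, 28 of 33 for interferon response and 30 of 36 for proliferation. Their medians were then 0.17, 0.12 and 0.12 against 0.00 over all genes. In the fit as reported, 62.5% of all genes were above 0, with a median of 0.06. Oxidative phosphorylation had 21 of 44 above 0 (median -0.01), cholesterol synthesis and uptake 13 of 20 (0.09) and cytokine receptor chains 14 of 21 (0.05). The BCL2 family lay mostly below 0, with 4 of 14 above 0 and a median of -0.09. Under median-of-ratios scaling its median was -0.15, again with 4 of 14 above 0. Oxidative phosphorylation had 13 of 44 above 0 and a median of -0.12 under quantile normalization, and cytokine receptor chains 9 of 21 and -0.03. That normalization put 49.3% of all genes above 0, with a median of -0.003. Heat shock genes had 7 of 19 above 0 and a median of -0.03. They had 2 of 19 and -0.10 under median-of-ratios scaling, and 1 of 19 and -0.22 under quantile normalization. None of these 5 lists held a call.

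**Figure D4:**
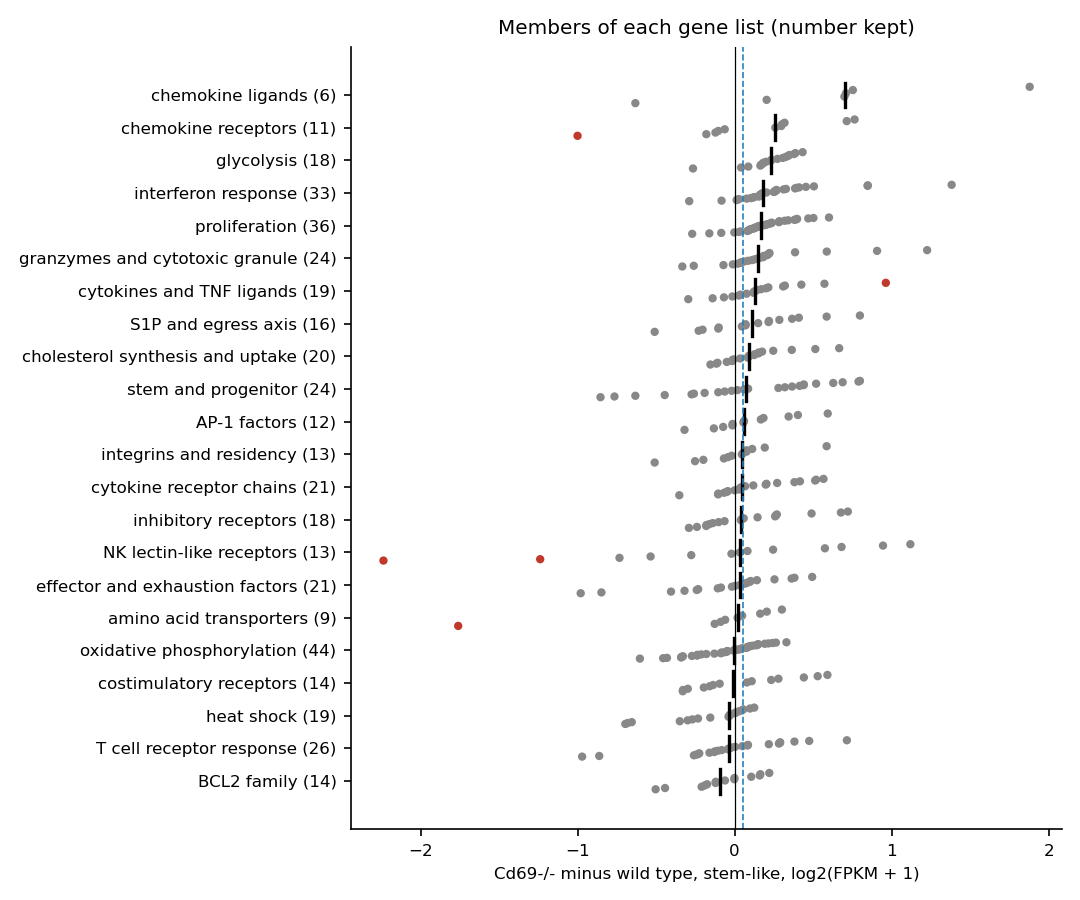
Difference between genotypes in stem-like cells (log2(FPKM + 1)) for each kept member of 22 gene lists, with the number kept in brackets. Black bars mark each list's median, the dashed blue line the median of all genes (0.06), and red points the 5 members past the threshold that lie in a list.

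Markers of other cells were read beside these lists, since in bulk libraries fewer cells of a type and less RNA per cell cannot be told apart. All 9 CD8 T cell markers were kept and lay above 0 (median 0.16), and their summed FPKM was 1064 and 1227 in wild type and 1290 and 1255 in Cd69-/-. Under quantile normalization 6 of the 9 lay above 0, against 49.3% of all genes. CD4 and regulatory T cell markers (6 of 7 kept, 3 above 0) summed to 73.6 to 78.6 FPKM in wild type and 73.8 to 76.2 in Cd69-/-. Within that list Foxp3 was at 0.423 and 0.475 against 1.14 and 0.979 FPKM, below the filter, while Ikzf2 lay the other way. NK cell markers (2 of 6 kept, 0 above 0) summed to 24.3 to 27.4 FPKM in wild type and 19.8 to 23.2 in Cd69-/-, nearly all of it Klre1 and Eomes. The NK-defining Ncr1 was at 0 and 0.106 against 0.0923 and 0.375 FPKM.

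Myeloid markers (8 of 15 with a row kept, 6 above 0) summed to 27.6 to 32.2 FPKM in wild type and 32.3 to 33.9 in Cd69-/-, of which Ctss made up 15.8 to 18.9. Tyrobp, a signalling adaptor of myeloid and NK cells, was at 1.28 and 1.47 against 0.321 and 0 FPKM (-1.05, adjusted p = 0.389), and C1qa at 0 and 0 against 0.794 and 0.134. Tumour and stroma markers (2 of 12 kept) summed to 27.9 to 35.4 in wild type and 28.5 to 32.2 in Cd69-/-, with Epcam at 0.431 FPKM or lower in the stem-like libraries. No neutrophil, B cell or gamma-delta and innate lymphoid marker was kept, and the dendritic and erythroid lists kept 1 each. Sums of these 5 lists were at most 2.04 FPKM in any stem-like library. The part of other cells in the gene differences above was not tested.

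The genotype difference was next set beside that in term-diff cells, which share no library with the stem-like comparison but share its estimate of the spread. The labels do not say whether both subsets were sorted from the same mice, so calls in both are not taken as independent. In term-diff 19 genes passed (0.194%), of which 11 were higher (0.112%) and 8 lower (0.0818%), and 8 passed in both subsets, which is 53.3% of the stem-like and 42.1% of the term-diff calls. These were Cd69, Klra3, Erdr1, Pkp4, Mmd and the gene models 2610005L07Rik, C530028O21Rik and G530011O06Rik, each with the same sign in both. The test of the difference between subsets passed for 3 genes (0.0307%), Rnu73b in the positive direction (0.0102%) and Mir133a-2 and Defb13 in the negative one (0.0204%). For Cd69 that difference was -0.66 (95% interval -1.21 to -0.10, adjusted p = 0.542).

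Slc1a2 and Ccr6 were at or near 0 in all term-diff libraries, so their fall had no counterpart there (differences of -0.21 and 0.13). Their stem-like minus term-diff differences were -1.56 (95% interval -2.13 to -0.98) and -1.13 (-1.56 to -0.69), each with adjusted p = 0.303, so the subsets were not shown to differ. For Klrc3 it was -1.26 (-1.97 to -0.56, adjusted p = 0.539) and for Klra3 1.26 (0.78 to 1.74, adjusted p = 0.303). For Csf1 it was 0.51 (0.10 to 0.93, adjusted p = 0.542). These intervals are not adjusted for the number of genes. Proliferation genes, of which 32 of 36 lay above 0 in stem-like cells, had 3 of 36 above 0 in term-diff (median -0.20), where 42.0% of all genes were above 0. No member of that list passed the test of the difference.

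**Figure D5:**
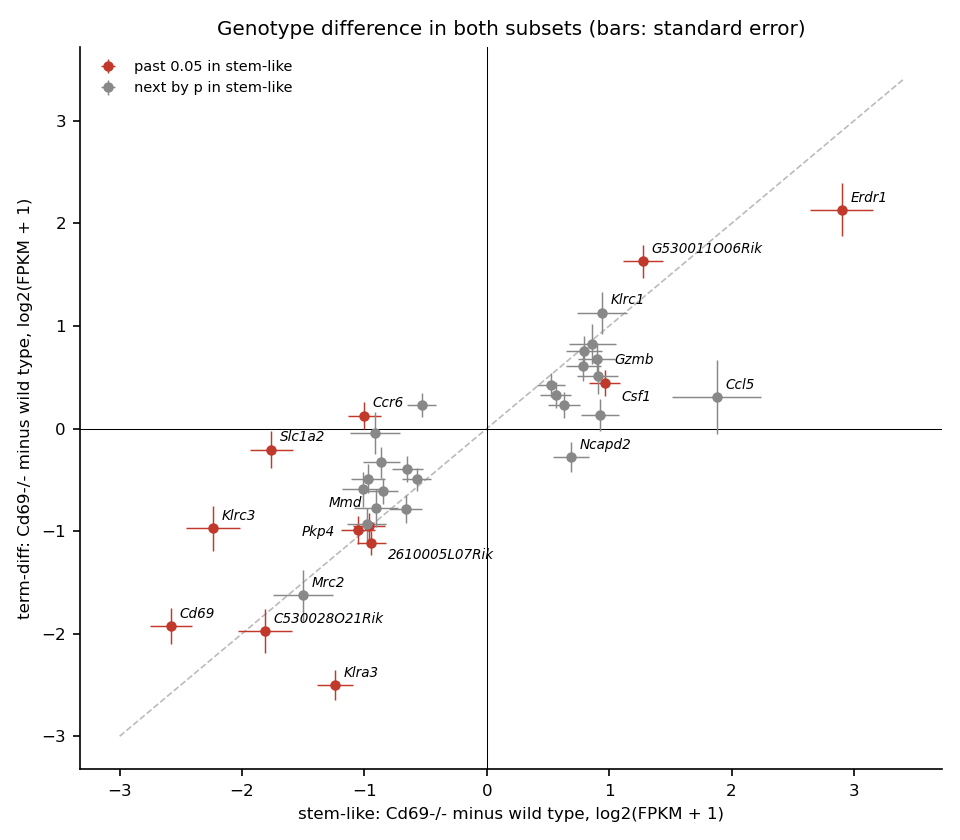
Difference between genotypes in term-diff against that in stem-like cells (log2(FPKM + 1), bars are SE, dashed line marks equality) for the calls in stem-like (red, without Mir133a-2, Rnu73b and Defb13) and the genes next by p (grey). The grey genes were taken only from those without overlap between genotypes in the stem-like libraries. C530028O21Rik, Pkp4 and Mmd lie near the line, Erdr1 is positive in both, and Slc1a2 and Ccr6 lie near 0 in term-diff.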

How the data were processed

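The authors deposited 1 gene table per library with expression in FPKM and its confidence limits. Cufflinks 2.2.1, TopHat 1.3.2, Bowtie2 2.3.4, bcl2fastq 2.20 and the build mm10 are listed in the submitters' processing notes, and per the labels' protocols libraries came from total RNA with a stranded low-input kit and were read single-end for 76 cycles. Annotation, strand setting and counts were not given in the sources used here. Fragments behind each value were implied by the confidence limits, as the square of 2 FPKM over the distance to the upper limit, and are approximate.

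Tables were joined by symbol and locus (23746 rows). A gene was kept if 2 or more of the 8 libraries reached 1 FPKM and every value had the status OK (9782 genes). Small RNA held most of each FPKM sum in few fragments, and 1 fragment of a very short gene is worth many FPKM. Values entered limma 3.58.1 (R 4.3.3, trend) as log2(FPKM + 1), a scale that understates changes of low genes, with 4 group means from all 8 libraries. Tests were 2-sided, with Benjamini-Hochberg adjustment across the kept genes and a cutoff of 0.05. The fit was tested on simulated data. Means of 2 libraries carry no depth-based interval.

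Named genes were Cd69, all calls, the 12 next by p in each direction and members of each list by p. A set of subset markers and genes within 10 Mb of Cd69 were named too. The 12 had a mean of at least 5 FPKM in either stem-like genotype and no overlap between genotypes in the stem-like libraries. Symbols of gene models (Gm, Rik, LOC or BC names) and of small RNA were passed over for them. Not all were printed, and some items are not reported here. Sex-linked genes, genes at the end of the X chromosome and low marker genes were chosen after their values were seen. The comparison, the members and the lists were chosen with earlier results of these data known. Alternatives changed pseudocount, filter, scaling, variance model, threshold and libraries.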

Additional observations from a re-analysis of the deposited data

Results flagged for a closer look

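The genotype difference in stem-like cells differed from that in term-diff cells, by the test of that difference over all genes, for 3 genes. For Mir133a-2 the stem-like minus term-diff difference was -5.89 (adjusted p = 7.57e-06). Its level was 54.5 and 62.8 FPKM in stem-like cells of wild type, 1 implied fragment in each library, and 0 in the other 6 libraries. Defb13 had the same pattern at 2.81 and 3.24 FPKM, also 1 implied fragment in each, with a difference of -2.01 (adjusted p = 0.0363). For Rnu73b it was 10.34 (adjusted p = 0.00549). Rnu73b was at 0 in both wild-type stem-like libraries and at 385 to 1556 FPKM in the other 6, on 3 and 2 implied fragments in the Cd69-/- stem-like libraries. With implied fragments in voom 0 genes passed this test, and 1029 had an unadjusted p under 0.05, against 889 with limma on FPKM.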

How the results depend on the processing

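In stem-like cells 15 genes passed as reported, 5 with a pseudocount of 0.1, 4 with no filter and 9 with a filter of 5 FPKM, all of them among the 15. The total was 43 with implied fragments in voom (12 of the 15), 35 with robust empirical Bayes (all 15) and 30 with rows of small RNA left out (13 of 13 tested), an alternative added after seeing the data. Leaving out 1 library gave 4 to 16. The 19 term-diff calls became 11 with no filter, 3 with a filter of 5 FPKM, 9 under quantile normalization, 316 with voom, 78 with robust empirical Bayes, 87 without small RNA and 47 at a threshold of 0.1, and 3 to 21 without 1 library. The 3 calls of the difference between subsets became 8 with a pseudocount of 5, 0 with voom (1029 at an unadjusted p under 0.05) and 1 without small RNA, and 2 to 11 without 1 library. Fewer genes tested or fewer samples enter some of these fits, and otherwise the cause was not tested. With only the 4 stem-like libraries in the fit 16 genes passed, 7 of them shared with the 15. Deviations of same-numbered libraries correlated at -0.088 between the stem-like genotypes and between -0.297 and 0.152 over the 6 pairs of groups, so the numbers were not taken as pairs. Whether subsets share mice is not given. With the replicate block 8 genes passed in stem-like, 7 of them shared, and 6 in term-diff. Cd69 kept its direction and its call in every fit, from -2.97 to -1.80. Over 179 named genes and lists' members, 3735 of the refitted values stayed on their side of the threshold. Of the others, 114 dropped below it and 48 newly passed it, and 0 called values changed sign. Only the 15 calls could drop, so all 114 are theirs. Most of the 3735 belong to genes not called as reported, so they do not measure how stable the calls were. Depth limits low genes such as Klra3, at 15 or fewer implied fragments in every stem-like library.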
